A study of Mus musculus with 24 samples.

Results

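Ribosomes are built in the nucleolus, and the genes described here are 40 mouse genes for the proteins that carry out that work together with Myc, a transcription factor known to raise many of them. The members were taken as a named list: every probe of the 41 genes was read on all 24 arrays, with older or clone names resolved through the accession of the probe. All 41 genes were found, with 75 probes, among 27670 genes or features on the array, and 23 of them had more than 1 probe. Each gene is represented by its brightest probe. All 41 were well above background on the 3 arrays of at least 1 group and were tested among 13498 genes.

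The cells were mouse embryonic fibroblasts, connective tissue cells grown from embryos of day 13.5 that came from C57BL6 parents each with 1 working copy of the gene for CHIP, a ubiquitin ligase encoded by Stub1 that works with heat shock chaperones. Wildtype cells with both copies and CHIP null cells with none stayed at 37 °C or were heat shocked at 43 °C, with a label of 30 or 240 min, in 8 groups of 3 arrays. All were grown with β-mercaptoethanol. The labels call the 3 arrays of a group biological replicates, and do not say whether they came from separate embryos. The title of the series names a stress-dependent interaction of CHIP with Daxx that suppresses a p53 program. Each array set the cells' RNA (Cy5) against the same pooled mouse reference RNA (Cy3), so every level below is a log2 ratio of sample to reference and is compared only within a probe.

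In the nucleolus, RNA polymerase I transcribes the long precursor of ribosomal RNA. Small nucleolar ribonucleoproteins (snoRNPs) then modify it: box C/D particles methylate it and box H/ACA particles convert uridines to pseudouridine. The small subunit processome cuts and folds the part that becomes the small subunit, and a separate set of GTPases, helicases and scaffold proteins assembles the large one. Myc binds the sequence CACGTG, called an E-box, and raises many of these genes in growing cells.

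Stub1 matched the genotype labels, with -0.24 to -0.01 in all 12 wildtype cultures against -2.43 to -1.72 in the 12 CHIP null cultures. Of 12 fibroblast markers, 10 were well above background on all 24 arrays, Pdgfra on 22 and Fap on 13. From 32.9 to 48.7% of probes were well above background depending on the array. The arrays labelled 30 min and 240 min lay on separate slides, 3 for each label. All 24 columns of the authors' deposited value table matched the scanner file of the other time label, with a correlation of at least 0.998 against at most 0.900 for the file of the same label. Times below are those of the scanner files, and which label is right was not settled. Levels under the 2 labels are given side by side with no test between them, and only differences within a label were tested between labels.

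Wildtype and CHIP null cells differed across almost the whole group of genes on the arrays labelled 30 min, where sex-linked genes also differed (below). At 240 min no member differed by the same test. In 37 °C controls at 30 min, 36 of 41 members were higher in CHIP null than in wildtype cells and 0 were lower. Over all genes tested, 14.7% were called higher in that comparison and 19.4% lower, so the members' share of 87.8% stood far from the background. The median log2 difference of the members was 0.35, beside -0.01 over all genes. In heated cells at 30 min, 31 of 41 members were higher in CHIP null cells and 0 lower, against 14.1% and 13.3% of all genes, and the median difference was 0.27 beside 0.01. At 240 min no member was called in controls (all genes: 4.8% higher, 8.27% lower) or in heated cells (all genes: 4.64% and 8.31%). At an unadjusted p under 0.05 in the same limma fit, 4 members passed in the controls at 240 min, 2 in each direction, against 9.13% of all genes higher and 14.9% lower. In the heated cells 3 passed, 2 of them higher, against 9.65% and 14.9% of all genes. The differences at 240 min ran from -0.18 to 0.18 in controls, and their 95% confidence intervals lay between -0.34 and 0.34.

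**Figure D1:**
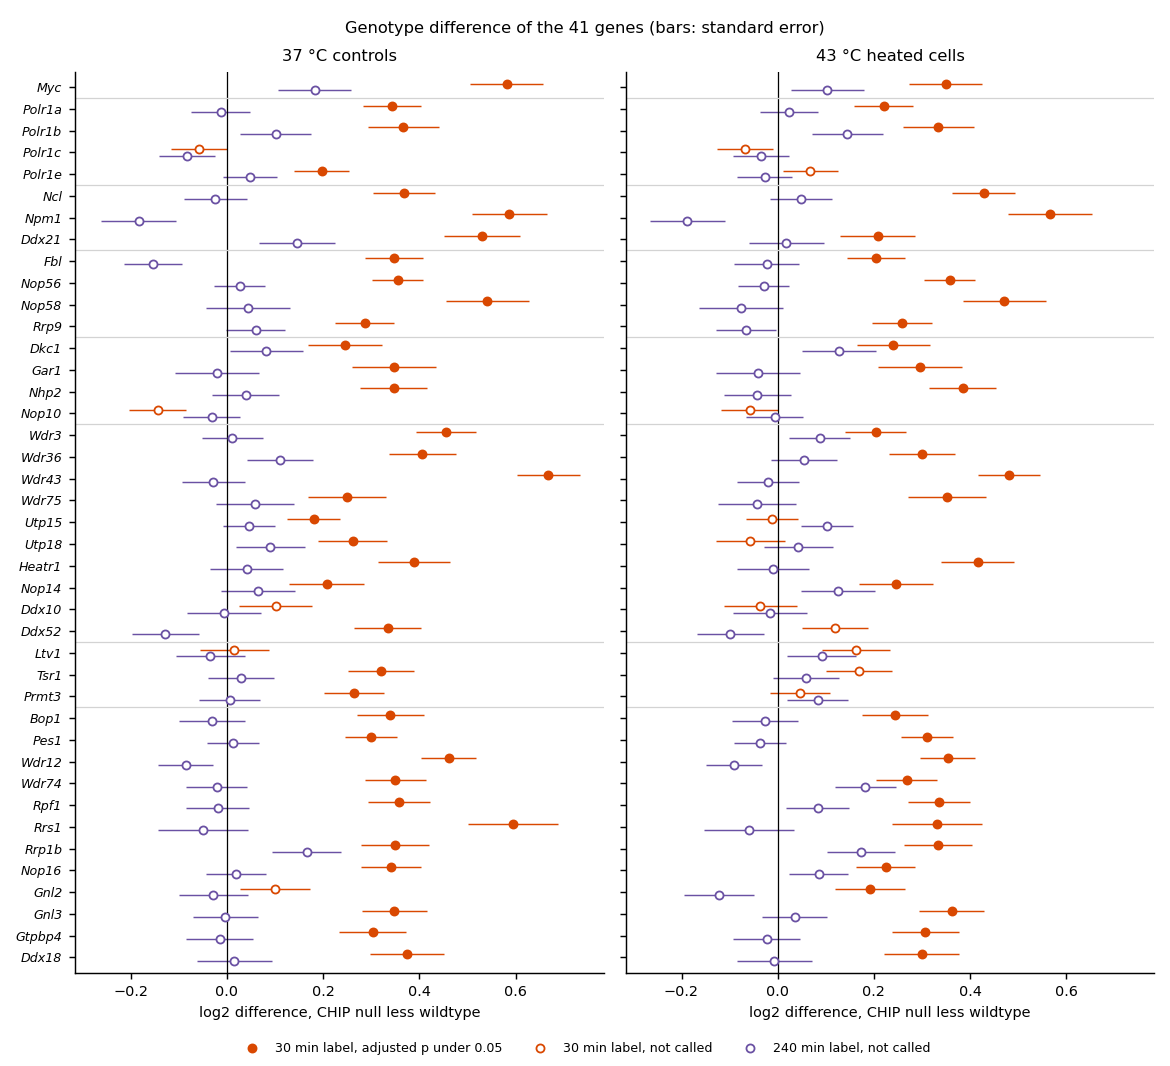
The points give the log2 difference of CHIP null less wildtype cells for each of the 41 genes (rows, grouped by role), in 37 °C controls (left) and 43 °C heated cells (right), with standard errors as bars. Filled points passed an adjusted p of 0.05: 36 and 31 at the 30 min label, in orange, lie to the right of 0, and the open purple points of the 240 min label lie on both sides of 0.

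Array by array, the mean level of the 41 members was 0.34 to 0.39 in wildtype controls at 30 min, 0.34 to 0.35 in heated wildtype cells, 0.67 to 0.72 in CHIP null controls and 0.58 to 0.62 in heated CHIP null cells. At 240 min all 12 arrays lay between 0.86 and 0.92. The wildtype arrays of the 30 min set were thus the lowest of all, the CHIP null arrays of that set lay between, and the arrays of the 2 genotypes overlapped at 240 min. No array of the wildtype controls at 30 min overlapped the CHIP null controls for 36 of 41 members, all higher in CHIP null cells, where 20.6% of all genes had groups that did not overlap in that direction. In heated cells the count was 32 of 41, against 20.1%.

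Myc itself was one of the larger differences. At 30 min its log2 level was -0.08, -0.07 and -0.10 in wildtype controls and 0.50, 0.43 and 0.57 in CHIP null controls. In heated cells it was 0.05, -0.04 and 0.09 in wildtype and 0.48, 0.35 and 0.32 in CHIP null cells. All CHIP null arrays of that set were above all wildtype arrays, and the difference was 0.58 ± 0.08 (SE, adjusted p = 5.20e-07) in controls and 0.35 ± 0.08 (SE, adjusted p = 0.000719) in heated cells. At 240 min Myc stood at 1.06, 1.03 and 1.09 in wildtype controls and at 1.36, 1.05 and 1.31 in CHIP null controls, groups that overlapped, with a difference of 0.18 ± 0.08 (SE, adjusted p = 0.122). Of the 2 dimmer Myc probes, 1 was also called higher in controls at 30 min, at 0.32, and the other stood at 0.16. In heated cells they stood at 0.18 and 0.06, and neither was called.

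Among the RNA polymerase I subunits, Polr1a, the catalytic subunit, stood at 0.53, 0.55 and 0.58 in wildtype and 0.88, 0.90 and 0.91 in CHIP null controls at 30 min. These groups were well apart, with a difference of 0.34 ± 0.06 (SE, adjusted p = 4.95e-05), and Polr1b, its large partner subunit, differed by 0.37 ± 0.07 (SE, adjusted p = 0.000249). Polr1e, an accessory subunit, differed by 0.20 ± 0.06 (SE, adjusted p = 0.00771). Polr1c, which RNA polymerase III also uses, did not follow them, at -0.06 ± 0.06 (SE, adjusted p = 0.471). In heated cells at 30 min Polr1a and Polr1b were called and Polr1e and Polr1c were not. The second Polr1a probe stood at 0.17 in controls and 0.16 in heated cells at 30 min and was called in neither.

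The RNAs of the nucleolar proteins Npm1, Ncl and Ddx21 were all higher in CHIP null cells at 30 min at both temperatures. Npm1, a chaperone that shuttles between nucleolus and cytoplasm, stood at 0.79, 0.55 and 0.51 in wildtype controls and at 1.21, 1.19 and 1.21 in CHIP null controls. In heated wildtype cells it was 0.46 and 0.78 on the 2 arrays with a usable spot, and it was 1.26, 1.12 and 1.18 in heated CHIP null cells. The groups did not overlap at either temperature, and the difference was 0.59 ± 0.08 (SE, adjusted p = 8.85e-07) in controls and 0.57 ± 0.09 (SE, adjusted p = 1.07e-05) in heated cells. At 240 min the sign was the other way, with 1.84, 1.75 and 1.77 in wildtype and 1.67, 1.48 and 1.65 in CHIP null controls, but the difference of -0.18 ± 0.08 (SE, adjusted p = 0.133) was not called although the groups did not overlap. Ncl (nucleolin), which binds the nascent precursor, differed by 0.37 ± 0.06 (SE, adjusted p = 4.83e-05) in controls and 0.43 ± 0.06 (SE, adjusted p = 7.16e-06) in heated cells at 30 min. Ddx21, an RNA helicase that couples polymerase I transcription to processing, differed by 0.53 ± 0.08 (SE, adjusted p = 4.12e-06) in controls. In heated cells the Ddx21 difference was 0.21 ± 0.08 (SE, adjusted p = 0.0495), and its call was lost when any of 5 of the 6 arrays was left out (adjusted p of 0.0578 to 0.175). The other 2 Ddx21 probes were called higher at both temperatures, at 0.45 and 0.39 in controls and 0.35 and 0.33 in heated cells.

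All 4 box C/D genes were higher in CHIP null cells at 30 min, in controls and in heated cells. Nop58, a core scaffold of the particle, stood at 0.73, 0.77 and 0.68 in wildtype and 1.23, 1.27 and 1.32 in CHIP null controls, a difference of 0.54 ± 0.09 (SE, adjusted p = 1.23e-05). Nop56, its partner, differed by 0.36, Fbl (fibrillarin), the methyltransferase, by 0.35, and Rrp9, which is specific to the U3 particle, by 0.29. Of the box H/ACA genes, Dkc1, the pseudouridine synthase, Gar1 and Nhp2 were higher by 0.24, 0.35 and 0.35. Nop10, the smallest protein of that particle, went the other way at -0.14 ± 0.06 (SE, adjusted p = 0.0599) and was not called. Its levels were 0.51, 0.62 and 0.60 in wildtype and 0.34, 0.53 and 0.43 in CHIP null controls, and the groups overlapped. The Dkc1 probe was not well above background in heated wildtype cells at 30 min, so no fold is given for it there.

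In the small subunit processome 9 of 10 genes were called higher in controls at 30 min. Wdr43, a subunit that acts with the transcribing polymerase, had the largest difference of all 41 members. Its levels were 0.69, 0.68 and 0.57 in wildtype and 1.48, 1.28 and 1.17 in CHIP null controls, and 0.62, 0.52 and 0.58 against 1.10, 1.02 and 1.03 in heated cells. The groups were far apart at both temperatures, with a difference of 0.67 ± 0.07 (SE, adjusted p = 2.85e-09) in controls and 0.48 ± 0.07 (SE, adjusted p = 1.23e-06) in heated cells. At 240 min Wdr43 was 1.21, 1.18 and 1.17 in wildtype and 1.15, 1.21 and 1.13 in CHIP null controls, which overlapped (difference -0.03). The second Wdr43 probe was called in controls at 0.38 and not in heated cells at 0.15. Wdr3 and Wdr36, both WD-repeat subunits, differed by 0.46 and 0.41 in controls at 30 min, and Heatr1, an early-binding subunit, by 0.39. Wdr75, Utp18 and Nop14, 3 further subunits, differed by 0.25, 0.26 and 0.21, and the helicase Ddx52 by 0.33. Utp15 was called too, and the gene not called was the helicase Ddx10, at 0.10 ± 0.08 (SE, adjusted p = 0.330). In heated cells 6 of the 10 were called, and Utp15, Utp18, Ddx10 and Ddx52 were not. The Utp15 probe was not well above background in either wildtype group or in heated CHIP null cells at 30 min, so its difference is only a bound and no fold is given.

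Of the late small subunit factors, Tsr1 and Prmt3 were higher in controls at 30 min, by 0.32 ± 0.07 (SE, adjusted p = 0.000480) and 0.26 ± 0.06 (SE, adjusted p = 0.00151). Prmt3 stood at 0.34, 0.31 and 0.35 in wildtype and 0.51, 0.65 and 0.63 in CHIP null controls, which did not overlap. In heated cells it stood at 0.27, 0.24 and 0.32 and 0.27, 0.36 and 0.34, which did. Tsr1 is a GTPase-like protein of the late precursor and Prmt3 methylates the ribosomal protein Rps2. Ltv1, which accompanies the small subunit out of the nucleus, was not called, at 0.02 ± 0.07 (SE, adjusted p = 0.894). None of these 3 was called on its brightest probe in heated cells at 30 min. The second Tsr1 probe was called there, at 0.26, and in controls at 0.52. No other Prmt3 probe was called in heated cells.

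In large subunit assembly 11 of 12 genes were called higher in controls at 30 min and 12 of 12 in heated cells. Rrs1, which helps load the 5S ribonucleoprotein, stood at 0.71, 0.64 and 0.47 in wildtype and 1.20, 1.07 and 1.33 in CHIP null controls, a difference of 0.59 ± 0.09 (SE, adjusted p = 9.82e-06) between groups that did not overlap. In heated cells it was 0.48, 0.49 and 0.55 against 0.87, 0.74 and 0.89, a difference of 0.33 ± 0.09 (SE, adjusted p = 0.00809). Bop1, Pes1 and Wdr12 form one complex that is needed for large subunit processing, and in controls they differed by 0.34, 0.30 and 0.46. The second Pes1 probe stood at -0.05 in controls and was not called. Wdr74, Rpf1, Rrp1b, Nop16 and the helicase Ddx18 differed by 0.34 to 0.37 in controls and by 0.22 to 0.34 in heated cells. The GTPases Gnl3 (nucleostemin) and Gtpbp4 differed by 0.35 and 0.30, and the GTPase Gnl2 was not called in controls, at 0.10 ± 0.07 (SE, adjusted p = 0.308). In heated cells Gnl2 was called at 0.19 ± 0.07 (SE, adjusted p = 0.0487), a call lost when any of 4 of the 6 arrays was left out.

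Other probes of the same genes gave a similar picture in controls. Of 28 further probes of the called members, 27 had the same sign as the brightest probe in controls at 30 min and 20 passed the test in that direction, with none called the other way. In heated cells 22 of 24 had the same sign and 7 passed. At 240 min 1 of the 29 further probes tested was called in controls, a Heatr1 probe that was higher at 0.26, and 0 in heated cells.

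Slides bear on this comparison. No slide held both genotypes at 1 temperature and time label. With the slide as a block, which reaches across slides through the other groups they carry, 19 of 41 members were called higher in controls at 30 min, 18 of them among the 36 called without the block, and 8 in heated cells, all among the 31. None was called lower. Over all genes that fit called 4.89% higher and 7.28% lower in controls, and 6.94% and 5.79% in heated cells. The median of the members with the block was 0.34 in controls and 0.26 in heated cells. Wdr43 was 0.56 in controls (adjusted p = 0.00306), Myc 0.43 (adjusted p = 0.0419) and Npm1 0.42 (adjusted p = 0.0591). With each array centred on its median in place of loess, 31 members were called higher in controls (median 0.47) and 7 in heated cells (median 0.21), with none lower, against 14.2% and 3.3% of all genes called higher. In that setting 66.8% of all calls in controls were higher, against 43.2% with loess, and in heated cells 28.9% against 51.5%. In heated cells at 240 min, where no member was called, it was 8.14% against 35.8%.

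The difference between time labels was itself tested, in a comparison added after the data were seen. The genotype difference was larger at 30 min than at 240 min for 27 of 41 members in controls and for 15 of 41 in heated cells, with 0 smaller. Among all genes 8.94% and 10.4% were called in that direction, and 9.15% and 7.33% in the other. Npm1 had the largest value at both temperatures, 0.77 ± 0.11 (SE, adjusted p = 7.98e-06) in controls and 0.76 ± 0.12 (SE, adjusted p = 2.49e-05) in heated cells. Wdr43 came next in controls, at 0.70 ± 0.09 (SE, adjusted p = 1.99e-06), and in heated cells Nop58 did, at 0.55 ± 0.12 (SE, adjusted p = 0.00184), ahead of Wdr43 at 0.50 ± 0.09 (SE, adjusted p = 0.000213). With the slide as a block 8 members were called larger at 30 min in controls and 0 in heated cells, against 2.74% and 3.04% of all genes. With median centring it was 8 and 5, against 3.6% and 4.05%.

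**Figure D2:**
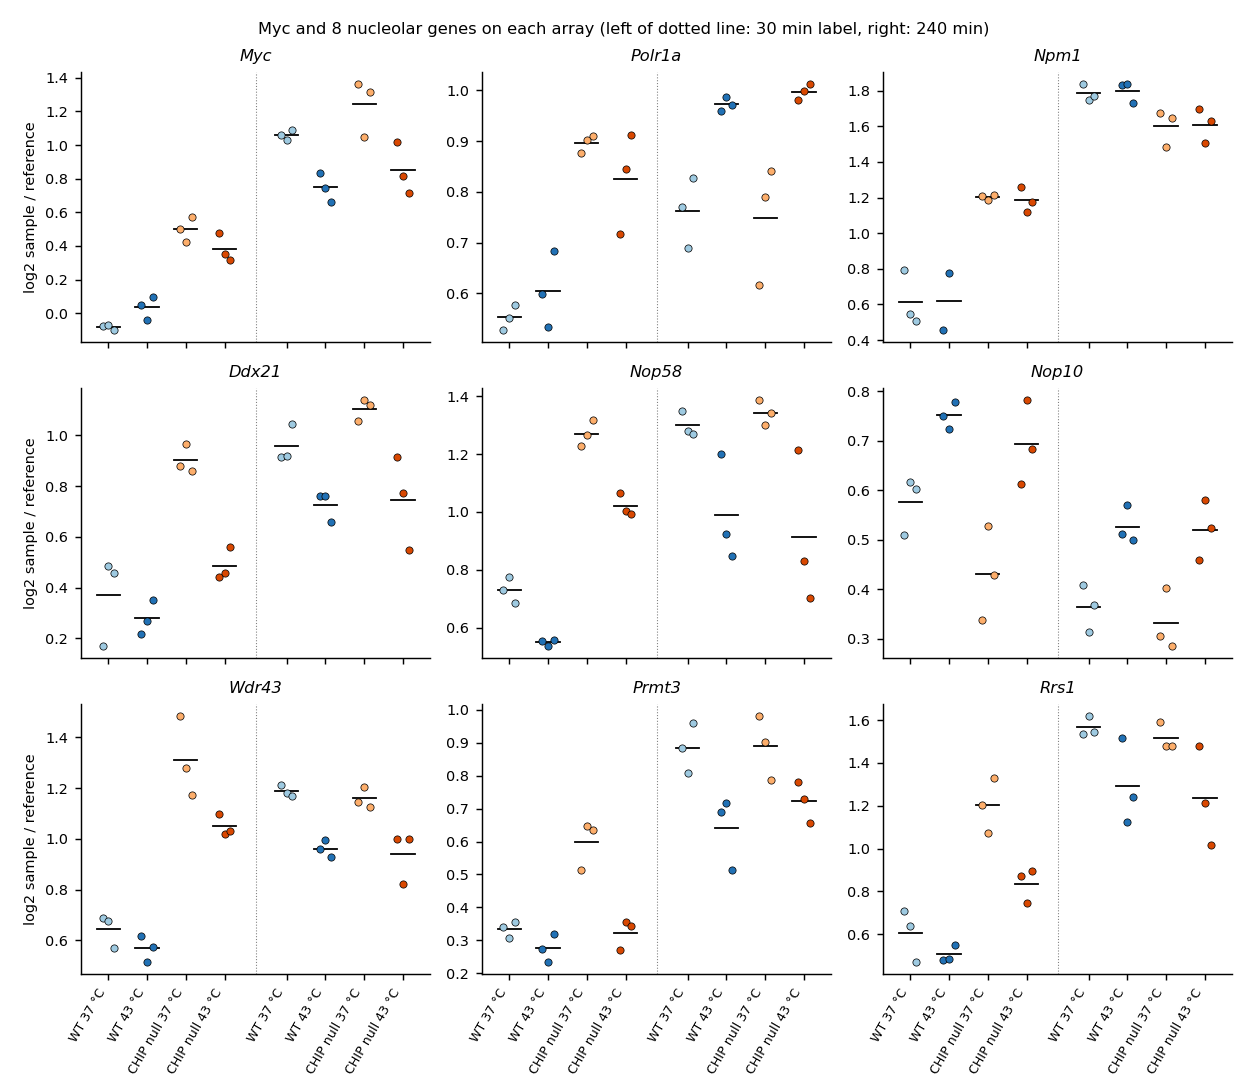
Each panel gives the log2 ratio of sample to reference RNA (vertical axis) of 1 gene on every array, by genotype and temperature, with the 30 min label left and the 240 min label right of the dotted line. Bars are group means of 3 arrays (2 for Npm1 in heated wildtype cells at 30 min). In Myc, Npm1, Nop58, Wdr43 and Rrs1 every CHIP null array lies above every wildtype array at 30 min, and Nop10 does not show this.

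Other gene lists moved with the members on the same arrays. Of 99 other ribosome biogenesis genes, 62 were higher and 1 lower in CHIP null controls at 30 min (median 0.21), and 52 higher and 1 lower in heated cells. The largest differences in controls were Pa2g4 (0.60), Rrp15 (0.58) and Nolc1 (0.55), and Rrp36 was lower, at -0.21. With median centring 56 and 9 of the 99 were called higher in controls and heated cells, and with the slide as a block 14 and 13, with 0 lower. At 240 min 1 of the 99 was called higher in controls and 0 lower. Of 21 MYC targets that work outside the nucleolus, 13 were higher and 1 lower at 30 min in controls, and the same counts held in heated cells. They were led by the folate enzymes Mthfd2 (0.68) and Shmt2 (0.68) and the spermidine synthase Srm (0.45), while the cyclin Ccnd2 was lower (-0.88). Among 14 factors of the MYC network, 1 was higher and 2 were lower in controls: Mxd3 at 0.22, Mxd4 at -0.65 and Mxd1 at -0.31. The MXD proteins compete with MYC for the shared partner Max.

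Few of the cytosolic ribosomal protein genes, whose products are the parts the nucleolus assembles, were called in controls, though this turned with the scaling. Of 77 tested, 5 were higher and 4 lower in CHIP null controls at 30 min, below the shares of all genes, with a median of 0.01. Rpl31 (0.28), Rpl14 (0.24) and Rpl3 (0.19) were the highest, and Rps2 (-0.28) and Rpl38 (-0.20) were among the lower. With median centring 46 of the 77 were called higher in controls and 0 lower, with a median of 0.41, and with the software's log ratio 11 and 0. In heated cells at 30 min 19 were higher and 1 was lower.

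Markers of cell division and of other cells also differed on these arrays. All 18 proliferation markers were higher in CHIP null cells at 30 min in both temperatures, and 1 of 18 was at 240 min in each. Their mean level was 0.52 to 0.62 on wildtype control arrays, 0.31 to 0.32 on heated wildtype arrays, 1.11 to 1.17 on CHIP null controls and 0.90 to 0.95 on heated CHIP null arrays, and 0.95 to 1.07 on all arrays at 240 min. Of 16 macrophage markers 14 were tested, and all 14 were lower in CHIP null controls at 30 min, led by Lyz2 (-2.69) and Marco (-2.36). In heated cells 4 of 14 were lower at 30 min, and at 240 min 7 in controls and 6 in heated cells. The mean macrophage level was -0.39 to -0.35 on wildtype controls at 30 min and -1.18 to -1.08 on CHIP null controls, with -0.91 to -0.79 and -1.10 to -1.02 after heat. At 240 min it was -1.34 to -1.09 on wildtype and -1.69 to -1.37 on CHIP null arrays. Of the whole list, Lyz2 and Marco were well above background on all 24 arrays, C1qb on 23, Cd68, Ctss, Tyrobp and Cd52 on 22, Csf1r and Fcer1g on 21, Cd14 on 20 and C1qa on 18. Itgam was well above background on 0 arrays, Laptm5 on 2, Ptprc on 5, Msr1 on 6 and Adgre1 on 14 of 24. Their part in the members' difference was not tested, and a change in the mix of cells and a change of RNA per cell cannot be told apart in such bulk samples.

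Sex-linked genes separated the same arrays. The Y-linked Ddx3y and Eif2s3y were well above background on all 6 wildtype arrays at 30 min and on none of the other 18. Xist, which female cells express to silence 1 X chromosome, was not well above background on those 6 arrays and was on the other 18. The wildtype cells of the 30 min set thus differed from all others in these 3 genes. At 30 min this difference ran along the genotype labels, so the design cannot tell it from genotype there. Its part in the members' difference was not tested.

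**Figure D3:**
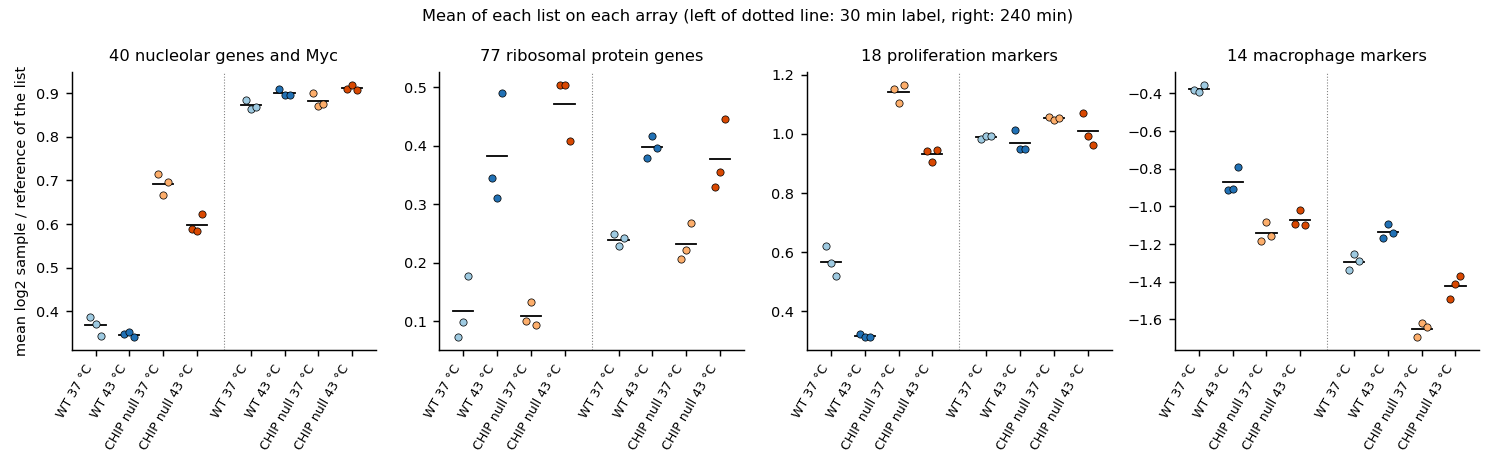
Mean log2 ratio of sample to reference RNA over each gene list (vertical axis) on every array, by genotype and temperature, with the 30 min label left and the 240 min label right of the dotted line; bars are means of 3 arrays. The 41 genes and the proliferation markers are lowest on the wildtype arrays at 30 min, the macrophage markers are highest on the wildtype controls at 30 min, and the ribosomal protein genes separate 37 °C from 43 °C.

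Because the members moved together, their promoters were searched for the E-box CACGTG. RefSeq (GRCm38.p6) gave a window from 250 bases before to 50 bases after the start of transcription for 33 of the 41 members. Myc, Npm1, Fbl, Wdr36, Bop1, Rpf1, Rrs1 and Gnl2 had none. The motif reads the same on both strands and was the only motif searched. It was found in 6 of 33 members (18.2%), in 20 of 86 other ribosome biogenesis genes (23.3%), in 6 of 58 cytosolic ribosomal protein genes (10.3%) and in 8.09% of 27025 genes with a window. The 30 bases around each match are shown, 5′ to 3′ on the gene's strand with the motif in capitals, because they hold the sequence that Myc is known to bind.
Wdr43: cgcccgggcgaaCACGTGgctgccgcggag
Utp18: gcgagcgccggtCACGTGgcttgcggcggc
Ltv1: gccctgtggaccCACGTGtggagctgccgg
Tsr1: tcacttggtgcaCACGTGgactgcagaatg
Prmt3: gccccctacgccCACGTGacccggaagcgc
Pes1: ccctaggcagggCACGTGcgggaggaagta
They lie at chr17:71616220-71616249 on the plus strand (Wdr43), chr11:93885769-93885798 on the minus strand (Utp18), chr10:13193092-13193121 on the minus strand (Ltv1), chr11:74898092-74898121 on the plus strand (Tsr1), chr7:49778333-49778362 on the plus strand (Prmt3) and chr11:3963965-3963994 on the plus strand (Pes1). The motif began 20 bases before the start in Utp18 and 13 before it in Prmt3, and at base 18 of the transcript in Wdr43, 29 in Ltv1, 25 in Tsr1 and 3 in Pes1. Of the 6, 5 were called higher in CHIP null controls at 30 min, and of the 27 members with a window and no match, 24 were. In heated cells at 30 min 2 of the 6 were called higher, and 21 of the 27. Wdr43, with the largest difference of all members, held a match, and Ltv1, which was not called, held one too. A match is a description of these letters and not a measured binding site.

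With heat fewer members were called than between genotypes at 30 min, and the direction depended on the gene. At 30 min in wildtype cells 1 of 41 members, Nop10, was called higher and 1, Ltv1, lower, with 6.91% and 7.7% of all genes called. The shares of the members were below these. In CHIP null cells at 30 min 12 of 41 members (29.3%) fell and 1 (2.44%) rose, where 12.6% of all genes were lower and 22.6% higher. The median change of the members was -0.09 there, beside 0.03 over all genes. With the software's log ratio 8 of the 41 members fell and 3 rose in these cells, against 18.4% and 15.7% of all genes. The falls then lay near the background share, and 6 of the 13 calls were kept. At 240 min 8 members rose and 7 fell in wildtype cells (all genes: 18.8% higher, 12.7% lower), and 9 rose and 6 fell in CHIP null cells (all genes: 24.4% and 14.6%). Those shares were close to the background, and the medians of 0.04 and 0.05 were close to those of all genes, 0.06 and 0.07. On the brightest probe 16 of the 41 members were called in no heat comparison. Among them were Npm1, Ncl, Dkc1, Polr1b, Polr1c, Pes1 and the GTPases Gnl2, Gnl3 and Gtpbp4. The share of all genes with no such call was not counted. Dimmer probes of Npm1 (0.16), Pes1 (0.17) and Dkc1 (-0.21) were called in CHIP null cells at 30 min. A dimmer Heatr1 probe was called in wildtype cells at 240 min (0.19).

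The genes that fell in CHIP null cells at 30 min included 5 of the 10 small subunit processome genes, Wdr3, Wdr36, Wdr43, Utp15 and Utp18. The others were Ddx21, Nop56, Nop58, Tsr1, Prmt3, Bop1 and Rrs1. The heated arrays were not well above background for Utp15, whose fall is only a bound. Of the 6 members with an E-box in the promoter window 4 fell (Wdr43, Utp18, Tsr1 and Prmt3). Of the 27 with a window and no match 5 fell, a description with no test. Calls were not counted over all genes with a match. With the slide as a block the falls of Prmt3, Ddx21 and Wdr3 were still called. Those of Wdr43, Utp18, Tsr1, Nop56, Nop58 and Utp15 were not. The calls of Utp18, Tsr1, Nop56 and Nop58 were also lost in some fits without 1 array. Ddx21 had the largest fall. It stood at 0.88, 0.96 and 0.86 in CHIP null controls and 0.44, 0.46 and 0.56 in heated CHIP null cells, groups that did not overlap, a change of -0.42 ± 0.08 (SE, adjusted p = 0.000270). In wildtype cells at 30 min it was 0.17, 0.49 and 0.46 in controls and 0.22, 0.27 and 0.35 after heat, which overlapped, a change of -0.09 ± 0.08 (SE, adjusted p = 0.475). The fall rested on the brightest Ddx21 probe: the other 2 probes changed by -0.11 and 0.05 in CHIP null cells at 30 min and neither was called. Rrs1 changed by -0.37 ± 0.09 (SE, adjusted p = 0.00354) and Wdr3 by -0.34 ± 0.06 (SE, adjusted p = 0.000199). Calls of 7 members in this comparison, higher or lower, held without each of the 6 arrays in turn, and the count of members called was 8 without heated CHIP null replicate 2.

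Cytosolic ribosomal protein genes went the opposite way in the same cells with loess. Of 77, 72 rose and 0 fell with heat in CHIP null cells at 30 min (median 0.37), led by Rpl39 (0.58), Rps27 (0.57) and Rps24 (0.55), and 57 rose and 0 fell in wildtype cells. With median centring only 1 and 4 of the 77 were called, all higher, with medians of 0.04 and 0.24. With the software's log ratio 23 rose and 3 fell in CHIP null cells. Of the 99 other ribosome biogenesis genes 11 rose and 19 fell in CHIP null cells at 30 min, from Ddx24 (0.41), Nsa2 (0.38) and Pa2g4 (0.34) to Taf1d (-0.76), Sdad1 (-0.46) and Dhx33 (-0.41). Proliferation markers fell too, 8 of 18 in CHIP null and 10 of 18 in wildtype cells at 30 min, with none higher. Of the 14 macrophage markers 8 fell in wildtype cells, and 6 rose and 1 fell in CHIP null cells. Their part in the members' falls was not tested. Between genotypes the heat change of the members was not shown to differ: the interaction called 0 of 41 members at 30 min (0.0593% of all genes lower, 0.385% higher) and 0 at 240 min (0% of all genes). In that limma fit 7 members at 30 min, all lower, and 1 at 240 min passed an unadjusted p of 0.05, which 3.17% of all genes did in the lower direction at 30 min. At 240 min that member was higher, as were 2.29% of all genes.

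**Figure D4:**
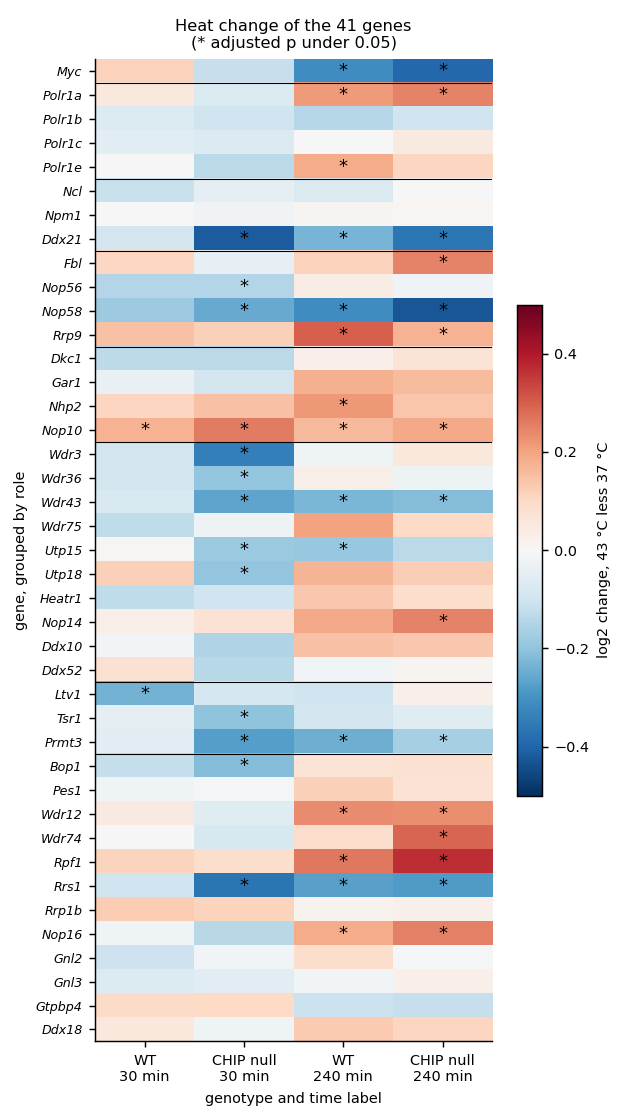
The colour gives the log2 change with heat (43 °C less 37 °C) of the 41 genes (rows, grouped by role with lines between) in each genotype and time label (columns), and an asterisk marks an adjusted p under 0.05. Blue cells are falls: 12 in CHIP null cells at 30 min carry an asterisk, and Myc, Ddx21, Nop58, Wdr43, Prmt3 and Rrs1 carry one in both columns at 240 min. With median centring no rise carried one.

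At 240 min 12 members were called the same way in both genotypes. Myc, Ddx21, Nop58, Wdr43, Prmt3 and Rrs1 fell in both, 6 of the 7 that fell in wildtype and all 6 that fell in CHIP null cells. Polr1a, Rrp9, Nop10, Wdr12, Rpf1 and Nop16 rose in both, 6 of the 8 that rose in wildtype and of the 9 in CHIP null cells. None was called in opposite directions. Over all genes 10.7% were called lower in both genotypes and 12.5% higher in both, so the members' share of 14.6% in each direction stood near that background. With the slide as a block no member was called in wildtype cells at 240 min, so none of the 12 was then called in both genotypes. The 2 genotypes have separate controls in this comparison.

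Myc fell from 1.06, 1.03 and 1.09 in wildtype controls at 240 min to 0.84, 0.75 and 0.66 after heat, and from 1.36, 1.05 and 1.31 to 1.02, 0.82 and 0.72 in CHIP null cells. The groups did not overlap in either genotype, and the changes were -0.31 ± 0.08 (SE, adjusted p = 0.00303) and -0.39 ± 0.08 (SE, adjusted p = 0.000324). One dimmer Myc probe was called lower in wildtype cells (-0.27) and neither was in CHIP null cells (-0.18 and -0.16). At 30 min the changes were 0.12 ± 0.08 (SE, adjusted p = 0.330) in wildtype and -0.12 ± 0.08 (SE, adjusted p = 0.243) in CHIP null cells, so neither was called. The heat change of Myc was lower at 240 than at 30 min in wildtype cells, at -0.43 ± 0.11 (SE, adjusted p = 0.0418), the only member called in that contrast (0.533% of all genes lower, 0.763% higher). Without 1 array at a time the count of members called there was 0 or 1, and it was 0 without wildtype control replicate 1 at 30 min, among others. It was also 0 with median centring and with the slide as a block. In CHIP null cells the same contrast of Myc was -0.27 ± 0.11 (SE, adjusted p = 0.163). Of the 14 MYC network factors, 2 rose and 1 fell in wildtype cells at 240 min, and 1 rose and 2 fell in CHIP null cells. Of the 21 MYC targets outside the nucleolus, 4 rose and 2 fell in wildtype cells and 3 rose and 3 fell in CHIP null cells at 240 min.

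Among the genes that fell with Myc at 240 min, Nop58 went from 1.35, 1.28 and 1.27 to 1.20, 0.93 and 0.85 in wildtype cells and from 1.39, 1.30 and 1.34 to 1.21, 0.83 and 0.70 in CHIP null cells. All heated arrays were below the controls, heated replicate 1 of each genotype the least. The changes were -0.31 ± 0.09 (SE, adjusted p = 0.00856) and -0.43 ± 0.09 (SE, adjusted p = 0.000489). With the slide as a block they were -0.10 in wildtype and -0.43 in CHIP null cells. Rrs1 went from 1.53, 1.62 and 1.54 to 1.52, 1.13 and 1.24 and from 1.59, 1.48 and 1.48 to 1.48, 1.21 and 1.02, and heated replicate 1 of each genotype stood at the level of the controls. Its changes were -0.27 ± 0.09 (SE, adjusted p = 0.0284) and -0.28 ± 0.09 (SE, adjusted p = 0.0196). These calls were lost when any of 5 of the 6 wildtype arrays and any of 3 of the 6 CHIP null arrays was left out. With the slide as a block the Rrs1 changes were -0.05 and -0.24. In wildtype cells heated replicate 1 was the only heated array on the slide of the controls, so slide and heat are partly mixed there. Wdr43 changed by -0.23 ± 0.07 (SE, adjusted p = 0.00990) and -0.22 ± 0.07 (SE, adjusted p = 0.0102), and its second probe was called lower in both genotypes as well. Its levels after heat were 0.96, 1.0 and 0.93 in wildtype and 1.0, 0.82 and 1.0 in CHIP null cells. Prmt3 changed by -0.24 ± 0.06 (SE, adjusted p = 0.00484) and -0.17 ± 0.06 (SE, adjusted p = 0.0368), from 0.88, 0.81 and 0.96 to 0.69, 0.72 and 0.51 and from 0.98, 0.90 and 0.79 to 0.78, 0.73 and 0.66. Its other 3 probes stood at -0.13, -0.02 and -0.01 in wildtype cells, none called. In CHIP null cells 1 of them was called, at -0.26, beside -0.11 and -0.12. The CHIP null call of the brightest Prmt3 probe was lost when any of 4 of the 6 arrays was left out. Ddx21 changed by -0.23 ± 0.08 (SE, adjusted p = 0.0257) and -0.36 ± 0.08 (SE, adjusted p = 0.000996) on its brightest probe, while its other 2 probes were at 0.10 and 0.09 in wildtype and at 0.05 and 0.13 in CHIP null cells, none called. Utp15, a processome subunit, was called lower in wildtype cells at -0.19 ± 0.05 (SE, adjusted p = 0.00973), and stood at -0.13 ± 0.05 (SE, adjusted p = 0.0512) in CHIP null cells.

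Polr1a rose at 240 min from 0.77, 0.69 and 0.83 to 0.96, 0.99 and 0.97 in wildtype cells and from 0.62, 0.79 and 0.84 to 0.98, 1.0 and 1.01 in CHIP null cells. The heated arrays were all above the controls, and the changes were 0.21 ± 0.06 (SE, adjusted p = 0.0100) and 0.25 ± 0.06 (SE, adjusted p = 0.00258). The second Polr1a probe changed by 0.06 and 0.17 and was called in neither genotype. With the slide as a block the changes of the brightest probe were 0.20 and 0.16. Rpf1, a large subunit factor, rose by 0.26 ± 0.07 (SE, adjusted p = 0.00332) in wildtype and 0.37 ± 0.07 (SE, adjusted p = 0.000118) in CHIP null cells, the largest rise in the latter. Rrp9 had the largest in wildtype cells, 0.30, against 0.17 in CHIP null cells. Wdr12 rose by 0.24 and 0.23, and Nop16, which also acts on the large subunit, by 0.19 and 0.25. Polr1e and Nhp2 were called higher in wildtype cells, and Fbl, which had a value on 2 of the 3 heated arrays, Nop14 and Wdr74 in CHIP null cells. These rises turned with the scaling: with median centring none of them was called in either genotype, and in CHIP null cells Polr1a stood at -0.08 and Wdr12 at -0.10. In CHIP null cells the heat change was higher at 240 than at 30 min for Wdr3, Nop16, Wdr74 and Polr1a, 4 of 41 members where 1.07% of all genes were called higher and 1.29% lower. This count ran from 0 to 11 when 1 array was left out, with 0 without control replicate 3 at 30 min and 11 without heated replicate 1 at 240 min. It was 0 with median centring and with the slide as a block.

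Nop10 was the single member called in all 4 heat comparisons, each time higher, as were 2.67% of all genes. No member was lower in all 4, against 3.79% of all genes. Its levels were 0.51, 0.62 and 0.60 in wildtype controls and 0.75, 0.72 and 0.78 after heat at 30 min, and 0.34, 0.53 and 0.43 and 0.61, 0.78 and 0.68 in CHIP null cells. At 240 min they were 0.41, 0.31 and 0.37 and 0.51, 0.57 and 0.50 in wildtype and 0.31, 0.40 and 0.29 and 0.46, 0.58 and 0.52 in CHIP null cells. The heated arrays lay above the controls each time. The changes were 0.17 ± 0.06 (SE, adjusted p = 0.0453) and 0.26 ± 0.06 (SE, adjusted p = 0.00132) at 30 min and 0.16 ± 0.06 (SE, adjusted p = 0.0370) and 0.19 ± 0.06 (SE, adjusted p = 0.0138) at 240 min. The call in wildtype cells at 30 min was lost when any of the 6 arrays was left out. At 240 min it was lost without any of 5 of the 6 arrays in wildtype cells and any of 3 of the 6 in CHIP null cells. In CHIP null cells at 30 min the call held without each array in turn. With the slide as a block only the call in CHIP null cells at 240 min was kept. With median centring the Nop10 change in CHIP null cells turned to -0.14 at 30 min and -0.09 at 240 min, with no call in any of the 4.

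The least changed members of each role are given for comparison, by the mean of their 4 heat changes. Npm1 changed by 0.00 and -0.02 at 30 min and by 0.01 and 0.01 at 240 min in wildtype and CHIP null cells. Heatr1 changed by -0.13, -0.10, 0.14 and 0.09 in the same order, and Gtpbp4 by 0.10, 0.10, -0.11 and -0.12, none of them called. Polr1c and Dkc1 were not called either. Nop56 was called lower in CHIP null cells at 30 min (-0.15), and Ltv1 in wildtype cells at 30 min, where its heated arrays were not well above background and the fall is only a bound.

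The heat counts moved with the normalization and the slide. With median centring the all-gene median in CHIP null cells became -0.18 at 30 and at 240 min, in place of 0.03 and 0.07, and 31 members were called lower at 30 min and 15 at 240 min, with 0 higher. Of all genes 38.6% and 34.5% were then called lower, so the members' count at 240 min lay near the background. The median of the members was then -0.43 at 30 min and -0.22 at 240 min, so at 30 min it stayed below that of all genes. In wildtype cells median centring called 0 members at 30 min and 7 at 240 min, all lower, where 13.1% of all genes were. The share of higher calls among all genes then fell from 47.3 to 4.22% and from 59.6 to 4.33% in wildtype cells at 30 and 240 min, and from 64.2 to 0.8% and from 62.7 to 0.406% in CHIP null cells. With the scanner software's own log ratio it was 43.9% in wildtype cells at 240 min, and 46.1% and 41.6% in CHIP null cells. Falls of Myc, Ddx21, Wdr43, Prmt3 and Rrs1 at 240 min were called in both genotypes with median centring, and the 6 rises shared by the genotypes in neither.

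With the slide as a block 0 members were called in wildtype cells at 30 or 240 min, 8 in CHIP null cells at 240 min (5 higher) and 7 in CHIP null cells at 30 min (6 lower). Of all genes that fit called 9.82% higher and 10.6% lower in CHIP null cells at 240 min, near the members' shares, and 11.8% and 8.19% at 30 min. In wildtype cells it called 1.27% higher and 2.11% lower at 30 min, and 1.88% and 2.62% at 240 min. On each slide that held both temperatures of a genotype, 1 array stood against 3. The block fit takes its heat changes from those slides alone, so the changes within slides are the same check and not a further one. Within those slides the median change of the members was 0.03 in wildtype and -0.11 in CHIP null cells at 30 min, with 32 of 41 members below 0 in the latter. It was 0.06 and 0.05 at 240 min. Myc changed within slides by -0.22 in wildtype and -0.46 in CHIP null cells at 240 min, and Nop10 by 0.15, 0.18, 0.15 and 0.23 in wildtype and CHIP null cells at 30 min and then at 240 min.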

How the data were processed

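RNA of 24 fibroblast cultures was set against a common reference on Agilent arrays with 2 colours. Per the file headers, the deposited scanner files came from Agilent Feature Extraction 9.1.3.1 and hold linear intensity values of spot and local background in each channel. They also hold other flags (control spot, well above background, outlier) per the file headers, and the log10 ratio of Cy5 over Cy3 that the authors deposited after the software's background subtraction and dye normalization. The authors' deposited value table is a score with scale, centring and direction unstated, and was used only to check the labels.

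Here mean intensities were corrected with normexp (offset 50), normalized by loess within each array without control spots, and turned into log2 ratios of Cy5 over Cy3, leaving out 333 outlier spots. Probes were named by accession, symbol or synonym through RefSeq. Of 41174 probes 8455 kept the name in the file. A gene was tested if at least 1 group had its brightest probe well above background in the sample channel on each of its 3 arrays. All 8 groups were fitted together in limma 3.58.1 (R 4.3.3), with Benjamini-Hochberg adjustment over 13498 genes, and an adjusted p under 0.05 is a call. P-values rest on the spread between arrays of the same group, pooled over the 8 groups and moderated across genes. Replicate arrays correlated at 0.981 to 0.995, and the number of arrays limits the precision. The method was tested on simulated data.

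The members, the other lists and the rule for named genes were chosen with earlier results of these data known. Named on every array are Myc and the gene of each role with the largest mean heat change, with Npm1 added after its values were seen. The others are the largest calls of each comparison, and the gene of each role with the smallest mean heat change. Other lists are given by counts with up to 3 of their largest calls in each direction. No set test was run. A probe not well above background on any array of a group is only a bound there. The alternatives were a normexp offset of 10, median centring, the software's log ratio, slide or replicate number as a block, no filter on dim probes, the mean of all probes of a gene and leaving out each array.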

Additional observations from a re-analysis of the deposited data

Results flagged for a closer look

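These values are differences between time labels of one comparison, each tested as the difference itself in limma. In wildtype cells the heat change of Myc was lower at 240 than at 30 min, at -0.43 ± 0.11 (SE, adjusted p = 0.0418). In CHIP null cells the heat change was higher at 240 than at 30 min for Wdr3 at 0.40 ± 0.09 (SE, adjusted p = 0.0213), and for Nop16 (0.39), Wdr74 (0.37) and Polr1a (0.32), with adjusted p from 0.0210 to 0.0457 over these genes.

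The genotype difference was larger at 30 than at 240 min in controls for Npm1 at 0.77 ± 0.11 (SE, adjusted p = 7.98e-06), and for Wdr43 (0.70), Rrs1 (0.64), Wdr12 (0.55), Fbl (0.50), Nop58 (0.50), Ddx52 (0.46) and Wdr3 (0.44). In heated cells it was larger for Npm1 at 0.76 ± 0.12 (SE, adjusted p = 2.49e-05), and for Nop58 (0.55), Wdr43 (0.50), Wdr12 (0.44), Nhp2 (0.43), Heatr1 (0.42), Wdr75 (0.39) and Rrs1 (0.39). These are the 8 members of largest difference in each, out of 27 and 15 called, in comparisons added after the data were seen. The time labels lie on separate slides, and the labels of the scanner files and of the authors' deposited value table do not match.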

How the results depend on the processing

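Counts are of the 41 members called. With the slide as a block they were 0 and 7 for heat at 30 min in wildtype and CHIP null cells, 0 and 8 at 240 min, 19 and 8 for genotype at 30 min in controls and heated cells, 8 and 0 for the genotype difference between time labels, and 0 in both genotypes for heat between time labels. With median centring they were 0 and 31 for heat at 30 min in wildtype and CHIP null cells, 7 in wildtype cells at 240 min, 7 for genotype in heated cells at 30 min, 8 and 5 for genotype between labels, and 0 in both genotypes for heat between labels. With the software's log ratio they were 4 and 6 in wildtype cells at 30 and 240 min, 9 in CHIP null cells at 240 min, and 0 and 1 for heat between labels in wildtype and CHIP null cells. With an offset of 10 they were 9 in wildtype cells at 240 min, and 0 and 1 for heat between labels. Without the filter on dim probes 1 was called in wildtype cells at 30 min and 0 between labels in wildtype cells, and with the mean of all probes 0 between labels in wildtype cells and 1 for genotype in heated cells at 240 min. Other counts stayed within 1.5 times of those reported under these settings, but a similar count can hold other members. For heat in CHIP null cells at 30 min the software's log ratio and the offset of 10 each called 11. Of these, 6 and 8 were among the 13 reported. For heat in CHIP null cells at 240 min median centring called 15, of which 6 were among the 15 reported. The causes were not tested.

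Median centring turned the heat change of Nop10 in CHIP null cells to -0.14 at 30 min and -0.086 at 240 min, and at 240 min that of Polr1a to -0.084, Rrp9 to -0.14, Nop14 to -0.10, Wdr12 to -0.10, Wdr74 to -0.063 and Nop16 to -0.095. The slide as a block turned the genotype difference of Bop1 in heated cells at 30 min to -0.030.

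The deviations of same-numbered arrays correlated at -0.25 to 0.57. The highest were between genotypes in heated cells at 240 min, at 0.57, 0.07 and 0.45 for replicates 1 to 3. The main fit did not pair the samples by number. The replicate block gave 2 and 13 calls for heat at 30 min in wildtype and CHIP null cells, 15 and 15 at 240 min, 37 and 30 for genotype at 30 min in controls and heated cells, 0 and 1 at 240 min, 0 for both interactions, 1 and 5 for heat between labels, and 27 and 16 for genotype between labels.

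Leaving out 1 array at a time gave 0 to 1 and 8 to 13 calls for heat at 30 min in wildtype and CHIP null cells, 7 to 13 and 9 to 18 at 240 min, and 33 to 37 and 25 to 30 for genotype at 30 min in controls and heated cells. It gave 0 to 1 and 0 to 3 for genotype at 240 min, 0 for both interactions, 0 to 1 and 0 to 11 for heat between labels, and 21 to 26 and 13 to 17 for genotype between labels. The lowest counts came without heated wildtype replicate 3 (7) and heated CHIP null replicate 2 (9) at 240 min. Calls held in every such fit for 31 of 36 members in the genotype comparison of controls at 30 min, 21 of 31 in that of heated cells, 5 of 15 and 8 of 15 for heat at 240 min in wildtype and CHIP null cells, 7 of 13 for heat in CHIP null cells at 30 min and 0 of 2 in wildtype cells. Signal over background limits Utp15, Dkc1 and Ltv1 in the groups named above.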
